A study of Homo sapiens with 12 samples.

Results

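The response of 22Rv1 cells to knockdown of HNF4G, taken beyond the response to a scrambled hairpin, was described across 11164 genes on 12 Illumina bead arrays. The measure was a difference of differences. The change with doxycycline was taken in each of 2 sublines with an HNF4G hairpin, the 2 changes were averaged, and the change in the subline with the scrambled hairpin was subtracted. A gene was taken where a probe of its name was above background (detection p under 0.01) on at least 2 of the 12 arrays, and 1 probe stood for a gene. The arrays carry 47323 probes, which name 20046 genes. 22Rv1 is a human prostate carcinoma line from a xenograft that regrew after castration. The groups were the hairpin 1 subline with doxycycline for 3 days (22RV1_HNF4Gsh1-Dox) and without it (22RV1_HNF4Gsh1-), the hairpin 2 subline with it (22RV1_HNF4Gsh2-Dox) and without it (22RV1_HNF4Gsh2-), and the scrambled subline with it (22RV1_shScr-Dox) and without it (22RV1_shScr), each with 2 arrays. All 6 groups were grown in RPMI medium with 10% fetal bovine serum, and all 3 sublines carried a hairpin that doxycycline switches on. Whether a subline was a single clone, and whether replicates came from separate cultures, is not given in the sources used here. The p-values therefore measure only how far these arrays spread, and that spread may be technical.

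HNF4G is an orphan nuclear receptor. It binds DNA as a dimer at repeated half-sites and is best known from the epithelium of the gut, where it acts beside its paralog HNF4A on genes of the brush border and of lipid handling. Short hairpin RNAs are cut by the cell's own microRNA machinery and guide the breakdown of a matching messenger RNA. The scrambled hairpin uses the same machinery without that target, and doxycycline itself reaches all 3 sublines. The contrast asks which transcripts moved with HNF4G knockdown and not with the drug and an induced hairpin alone.

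Median intensity per array was 92.5 to 108, and 14959 to 18293 probes were above background. The induced scrambled replicate 1 was the dimmest array. The 2 arrays of a group had correlations of 0.989 to 0.991 across genes. Levels below are normalized log2 intensities, and a level of 1 probe is not comparable with that of another. "Induced" stands for 3 days of doxycycline. Each change is a log2 difference with its standard error from limma (2 arrays a group), and adjusted p-values are over the 11164 genes. The lists of genes were chosen with earlier results of these data known.

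HNF4G itself was lower in every induced array with an HNF4G hairpin. Its levels were 4.73 and 4.83 induced and 6.30 and 6.18 uninduced with hairpin 1, 4.71 and 4.35 induced and 6.40 and 6.49 uninduced with hairpin 2, and 5.81 and 6.19 induced and 6.35 and 6.13 uninduced with the scrambled hairpin. The 4 induced hairpin arrays did not overlap the other 8, and on none of the 4 was the probe well above background. The mean hairpin change was -1.69 against -0.24 in the scrambled subline, a difference of -1.45 ± 0.22, adjusted p = 0.00803. As bounds, HNF4G was at least 2.08-fold lower in induced than in uninduced hairpin 1 cells and at least 2.48-fold lower in induced than in uninduced hairpin 2 cells. Without the uninduced scrambled replicate 2 the difference missed the threshold (-1.34, adjusted p = 0.0701), and without background correction it was -0.49 (adjusted p = 0.0596).

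Of the 11164 genes, 30 passed the threshold (adjusted p under 0.05), which is 0.269% of those tested. Of these, 26 were lower with the HNF4G hairpins than the scrambled response (0.233%) and 4 were higher (0.0358%). The falls included members of the lists of steroid enzymes, gut brush border and mucin genes, secreted liver products and metallothioneins, beside genes of no list. At an unadjusted p under 0.05 there were 1366 genes (12.2%), 668 lower and 698 higher, where 558.2 would be met if no gene differed. The middle of the distribution lay between -0.20 and 0.22 (quartiles), 44 genes were below -1 and 35 above 1. The smallest change that passed was 0.93 in size and the largest that did not was 1.34. When arrays were set to equal medians, the all-gene median became 0.26 and the split 13 lower and 43 higher, so changes here are relative to an all-gene median of 0.01. In bulk RNA, fewer cells of a type cannot be told apart from less RNA per cell. The count was 14 without the induced scrambled replicate 1 and 15 without the uninduced scrambled replicate 2.

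A difference of differences can come from either side. The make-up of the 26 falls and the 4 rises is given as a description, since they were chosen by this same difference. Of the 26 falls, 21 had a mean hairpin change at least 2 times as large as the scrambled change. The scrambled change was at least 2 times the larger for RAB8B and SCARNA23, and for LGALSL, PCDH10 and PURB neither was. All 4 rises came from the scrambled subline by the same measure. The median mean hairpin change was -1.34 over the falls, against a median scrambled change of 0.11, and it was 0.27 over the rises, against -1.29. In their own sublines 20 of the 26 falls passed with each hairpin and 0 passed with the scrambled hairpin. Of the 4 rises 0 passed with both hairpins and 3 passed, as falls, with the scrambled hairpin. In 18 of the 26 falls both hairpin sublines had their induced arrays below their uninduced arrays while the scrambled arrays overlapped or ran the other way, which was so for 5.09% of all genes. The same pattern upward was met in 2 of the 4 rises, against 6.14% of all genes. These counts use the same arrays as the test. The share of all genes that passed in a single subline is not given here, and nothing is read from the counts.

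**Figure D1:**
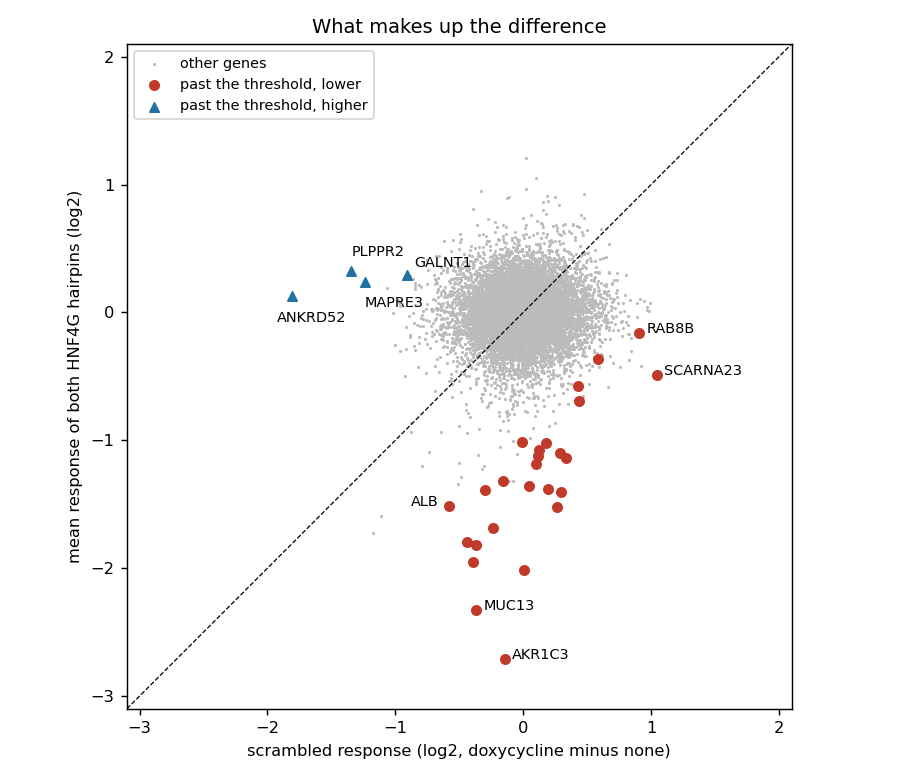
Mean doxycycline response of both HNF4G hairpins (vertical axis, log2) against the scrambled response (horizontal axis, log2) for 11164 genes, with the dashed line where both are equal. Most of the 26 falls (red) lie low on the vertical axis near a scrambled response of 0, and the 4 rises (blue) lie far to the left with mean hairpin responses of 0.13 to 0.32.

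On the list of intestinal brush border and mucin genes, MUC13, MYO1A, BAIAP2L2 and A1CF fell. MUC13 is a transmembrane mucin. Its levels were 4.40 and 4.48 induced and 6.92 and 6.39 uninduced with hairpin 1, 4.35 and 4.43 induced and 6.82 and 6.83 uninduced with hairpin 2, and 6.88 and 7.01 induced and 7.06 and 7.57 uninduced with the scrambled hairpin. On all 4 induced hairpin arrays MUC13 was at background, and the other 8 arrays were at 6.39 or above. The difference was -1.96 ± 0.24, adjusted p = 0.00430, with at least 2.77-fold lower levels in induced than in uninduced hairpin 1 cells and at least 3.23-fold lower in induced than in uninduced hairpin 2 cells. MYO1A, a myosin of the microvillus, had 4.48 and 4.55 induced and 6.34 and 6.21 uninduced with hairpin 1, 4.48 and 4.42 induced and 6.33 and 6.23 uninduced with hairpin 2, and 6.59 and 6.45 induced and 6.93 and 6.97 uninduced with the scrambled hairpin. It too was at background on all 4 induced hairpin arrays. Its scrambled arrays, like those of MUC13, were lower induced than uninduced without overlap. MYO1A differed by -1.36 ± 0.18, adjusted p = 0.00486 (bounds of at least 2.12-fold and at least 2.21-fold lower, induced against uninduced, with hairpin 1 and hairpin 2).

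The promoters of these genes are shown because MUC13 and MYO1A are the falls that hold a run of letters known as an HNF4 motif, CAAAGTCCA, within 250 bases before a start. RefSeq starts on GRCh38.p14 were listed for 18 of the 26 falls, 3 of the 4 rises and 9046 of the tested genes, and both strands were read. The motif lay in 2 of the 18 falls (11.1%) and in 34 of the 9046 tested genes (0.376%). Its variants CAAAGTTCA and CAAAGGTCA lay in 0 of the 18 falls and in 0.210% and 0.332% of the tested genes. Each sequence runs 5′ to 3′ on the gene's strand up to the start, and the capitals mark the motif, which reads TGGACTTTG there and CAAAGTCCA on the opposite strand.
MUC13, GRCh38.p14, chr3:124934752-124934857, minus strand: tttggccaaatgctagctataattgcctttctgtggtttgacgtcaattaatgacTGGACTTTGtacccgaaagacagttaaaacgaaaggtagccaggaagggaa
MYO1A, GRCh38.p14, chr12:57050130-57050214, minus strand: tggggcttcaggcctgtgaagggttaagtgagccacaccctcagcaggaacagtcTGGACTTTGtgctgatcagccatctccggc
In MUC13 the match lies 51 bases before the start and in MYO1A 30 bases before 1 of its 2 listed starts. Of the 34 tested genes with the motif, 32 did not pass, 20 were below 0, and their changes ran from -1.96 to 0.61 with a median of -0.04, against 0.02 over all tested genes with a listed start. A match is a description of the letters and not of a bound site, and MUC13 and MYO1A were singled out with their values known.

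BAIAP2L2, a membrane-binding protein of the intestinal and renal epithelium, and A1CF, the cofactor of apolipoprotein B RNA editing, were the other 2 falls of the list. By that role A1CF is neither a brush border protein nor a mucin. BAIAP2L2 levels were 5.82 and 6.03 induced and 7.02 and 7.13 uninduced with hairpin 1, 5.76 and 5.86 induced and 7.47 and 7.38 uninduced with hairpin 2, and 8.25 and 8.21 induced and 8.55 and 8.50 uninduced with the scrambled hairpin. Its induced hairpin arrays were the lowest 4, and its uninduced hairpin arrays were already below the scrambled ones. Its induced scrambled arrays lay below its uninduced scrambled arrays. The difference was -1.09 ± 0.18, adjusted p = 0.0168. A1CF levels were 4.82 and 5.02 induced and 6.72 and 6.92 uninduced with hairpin 1, 4.68 and 5.38 induced and 6.88 and 6.65 uninduced with hairpin 2, and 7.04 and 6.83 induced and 7.22 and 7.39 uninduced with the scrambled hairpin, and its difference was -1.45 ± 0.26, adjusted p = 0.0276. A1CF was below background on both induced hairpin 1 arrays and on 1 of the 2 induced hairpin 2 arrays, with at least 3.10-fold lower levels in induced than in uninduced hairpin 1 cells. Its scrambled arrays were also lower induced than uninduced without overlap. A second A1CF probe differed by -1.42 (adjusted p = 0.0786 over 19172 probes) and did not pass. Of the 15 measured members of the list, 4 fell and 11 did not pass, and the median was -0.09. The genes of villin (VIL1, -0.30 ± 0.26, adjusted p = 0.682) and liver-intestine cadherin (CDH17, -0.35 ± 0.29, adjusted p = 0.657), named after their values were seen, did not pass. CDH17 was below background in all 3 induced groups and VIL1 in both induced hairpin groups. The gut protease inhibitor SPINK1 (-0.68 ± 0.23, adjusted p = 0.245) did not pass either.

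BAIAP2L2 lost its call without either uninduced scrambled replicate, without the induced scrambled replicate 1, or without replicate 1 of either hairpin 2 group (adjusted p of 0.0515 to 0.0925). A1CF lost its call without any of the 4 scrambled arrays, without the uninduced hairpin 1 replicate 2, the induced hairpin 1 replicate 1 or the uninduced hairpin 2 replicate 1 (0.0518 to 0.140). MUC13 and MYO1A kept theirs in all 12 fits that leave out 1 array. MYO1A, A1CF and BAIAP2L2 lost theirs without background correction (-0.38, adjusted p = 0.117; -0.49, adjusted p = 0.0745; -0.46, adjusted p = 0.0567). In the authors' deposited log2 table MYO1A (-0.44, adjusted p = 0.0898) and A1CF (-0.55, adjusted p = 0.0520) did not pass, and with equal array medians BAIAP2L2 did not (-0.83, adjusted p = 0.206). A1CF also missed with no filter on dim probes (adjusted p = 0.0738).

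Of the secreted liver products PON1, ANG and ALB fell. ANG encodes angiogenin, a secreted ribonuclease that promotes vessel growth. Its levels were 9.98 and 9.83 induced and 11.05 and 10.86 uninduced with hairpin 1, 9.87 and 10.06 induced and 11.23 and 10.99 uninduced with hairpin 2, and 11.26 and 11.38 induced and 11.04 and 11.04 uninduced with the scrambled hairpin. All 4 induced hairpin arrays lay below all 8 others, and both induced scrambled arrays lay above both uninduced ones. ANG differed by -1.38 ± 0.19, adjusted p = 0.00663, a 2.61-fold lower response, and a second ANG probe gave -1.43 (adjusted p = 0.00787 over 19172 probes). With equal array medians ANG missed the threshold (-1.12, adjusted p = 0.0538). PON1, an esterase carried on high-density lipoprotein, had 6.63 and 6.34 induced and 7.91 and 7.77 uninduced with hairpin 1, 6.54 and 6.46 induced and 7.70 and 8.11 uninduced with hairpin 2, and 8.61 and 8.47 induced and 8.34 and 8.35 uninduced with the scrambled hairpin. The 4 induced hairpin arrays again stood below the rest, and the difference was -1.57 ± 0.21, adjusted p = 0.00556. ALB encodes albumin, and its levels were 9.55 and 9.76 induced and 11.33 and 11.35 uninduced with hairpin 1, 9.80 and 9.84 induced and 11.11 and 11.20 uninduced with hairpin 2, and 11.02 and 11.10 induced and 11.60 and 11.68 uninduced with the scrambled hairpin. Here the scrambled arrays moved the same way, so that the difference (-0.93 ± 0.18, adjusted p = 0.0457) was smaller than the mean hairpin change of -1.51. ALB missed the threshold whichever array was left out (adjusted p of 0.0579 to 0.133), and with equal medians (-0.64, adjusted p = 0.341), cyclic loess or array weights, although a second ALB probe gave -1.35 (adjusted p = 0.0138 over 19172 probes). Of 8 measured members of the list 3 fell and 5 did not pass, with a median of -0.50 against 0.01 over all genes. APOE, the apolipoprotein of remnant particles, did not pass (-0.70 ± 0.23, adjusted p = 0.230). Its probe was above background only on the 2 induced scrambled arrays, so no hairpin change is given, and it was at least 1.34-fold higher in induced than in uninduced scrambled cells.

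**Figure D2:**
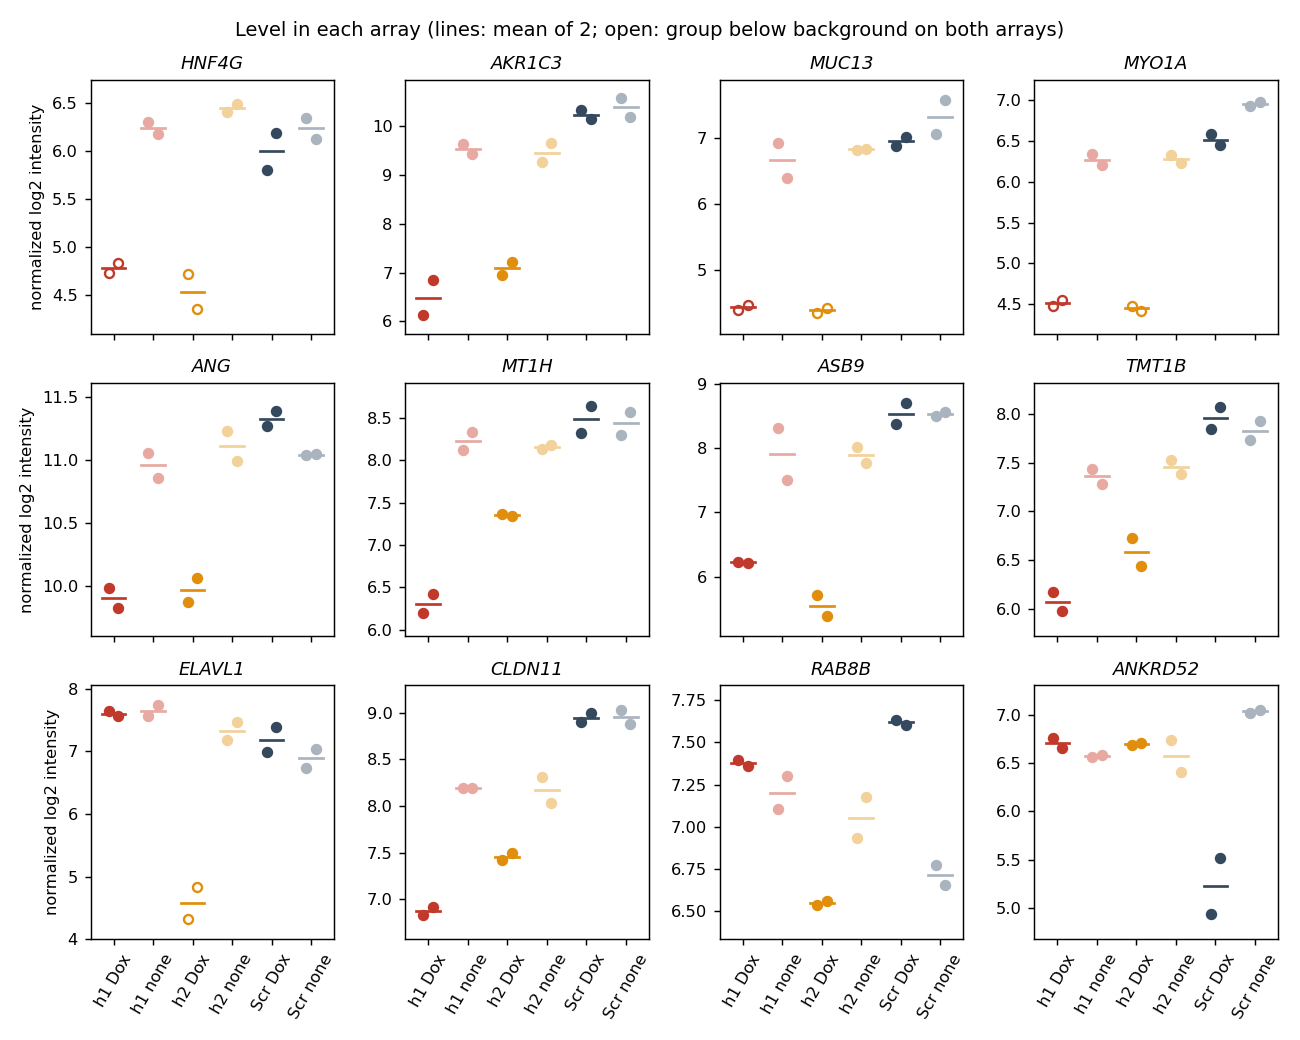
Normalized log2 intensity (vertical axes, each with its own range) of 12 genes in every array, by group, with h1, h2 and Scr for the hairpin 1, hairpin 2 and scrambled sublines, points for arrays and lines for the mean of 2. Open points mark groups below background on both arrays. ANG, MUC13 and MYO1A are low in the 4 induced hairpin arrays, ELAVL1 only with hairpin 2, and ANKRD52 only in the induced scrambled arrays.

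Among enzymes that act on steroids, AKR1C3, AKR1C4 and UGT2B15 fell. AKR1C3 reduces androstenedione to testosterone, and its change was the largest of the 11164 genes. Levels of AKR1C3 were 6.12 and 6.85 induced and 9.64 and 9.43 uninduced with hairpin 1, 6.96 and 7.22 induced and 9.27 and 9.65 uninduced with hairpin 2, and 10.33 and 10.15 induced and 10.58 and 10.19 uninduced with the scrambled hairpin. Each pair of induced hairpin arrays was over 2 log2 units below its uninduced pair, while the scrambled arrays overlapped. The difference was -2.57 ± 0.28, adjusted p = 0.00363, a 5.93-fold lower response. AKR1C4, a liver enzyme of bile acid and steroid reduction, had 5.65 and 5.81 induced and 7.96 and 7.89 uninduced with hairpin 1, 6.34 and 5.84 induced and 7.82 and 7.77 uninduced with hairpin 2, and 9.37 and 9.15 induced and 9.47 and 9.84 uninduced with the scrambled hairpin. The induced scrambled arrays of AKR1C4 lay below its uninduced scrambled arrays. Its uninduced hairpin arrays already stood -1.80 from the uninduced scrambled ones (adjusted p = 7.94e-05), and it fell further with induction (-1.56 ± 0.23, adjusted p = 0.00750). The AKR1C4 call was lost without the induced scrambled replicate 1 (adjusted p = 0.0655). AKR1C3, AKR1C4 and AKR1C2 are close paralogs, so the share of signal that belongs to each gene is uncertain.

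UGT2B15 joins glucuronic acid to androgens for excretion. Its levels were 4.75 and 4.64 induced and 5.57 and 5.79 uninduced with hairpin 1, 4.65 and 4.71 induced and 5.67 and 5.81 uninduced with hairpin 2, and 7.51 and 7.53 induced and 7.60 and 7.09 uninduced with the scrambled hairpin. Both induced hairpin groups were at background, and its uninduced hairpin arrays lay -1.63 from the scrambled ones (adjusted p = 9.29e-05), the second largest such gap among the falls. It differed by -1.20 ± 0.22, adjusted p = 0.0319, at least 1.41-fold and at least 1.53-fold lower in induced than in uninduced cells with hairpin 1 and hairpin 2. UGT2B15 kept its call only when the uninduced scrambled replicate 1 or the uninduced hairpin 1 replicate 1 was left out (adjusted p of 0.0621 to 0.153 without any other array). It was also lost without background correction (-0.41, adjusted p = 0.144), with equal medians (-1.01, adjusted p = 0.102), in the authors' deposited log2 table (-0.46, adjusted p = 0.117) and with no filter on dim probes (adjusted p = 0.0621). Its near-identical paralog UGT2B17 had 5.08 and 4.48 induced and 6.50 and 5.91 uninduced with hairpin 1, 5.27 and 4.77 induced and 6.13 and 6.33 uninduced with hairpin 2, and 8.07 and 8.18 induced and 8.24 and 8.17 uninduced with the scrambled hairpin, with the induced hairpin 1 pair and 1 of the induced hairpin 2 pair below background, and its difference did not pass (-1.24 ± 0.29, adjusted p = 0.104). Of the 33 measured members of the steroid and xenobiotic list 3 fell and 30 did not pass, with a median of 0.02. The enzymes of the list that did not pass ran from -1.24 (UGT2B17) to 0.72 (HSD17B10, a mitochondrial dehydrogenase named after its value was seen).

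Metallothioneins, small cysteine-rich proteins that hold zinc and copper, were represented by 3 falls, MT1F, MT1H and MT1G. MT1H levels were 6.20 and 6.42 induced and 8.12 and 8.33 uninduced with hairpin 1, 7.36 and 7.35 induced and 8.13 and 8.18 uninduced with hairpin 2, and 8.32 and 8.64 induced and 8.30 and 8.57 uninduced with the scrambled hairpin. The induced hairpin 1 arrays were lowest, the induced hairpin 2 arrays came next, and the other 8 overlapped. MT1G levels were 9.47 and 9.19 induced and 10.75 and 10.89 uninduced with hairpin 1, 10.05 and 9.85 induced and 10.57 and 10.84 uninduced with hairpin 2, and 10.91 and 10.88 induced and 10.68 and 10.88 uninduced with the scrambled hairpin, in the same order. MT1F had 6.25 and 6.02 induced and 7.52 and 7.72 uninduced with hairpin 1, 7.06 and 7.10 induced and 7.79 and 7.94 uninduced with hairpin 2, and 7.97 and 7.53 induced and 7.47 and 7.36 uninduced with the scrambled hairpin, again lowest in the induced hairpin 1 arrays. Their differences were -1.41 ± 0.21, adjusted p = 0.00749 for MT1H, -1.47 ± 0.21, adjusted p = 0.00749 for MT1F and -1.23 ± 0.20, adjusted p = 0.0172 for MT1G. The hairpin 1 change was the larger in all 3, and for MT1H the gap did not pass the test (hairpin 1 minus hairpin 2 of -1.12 ± 0.24, adjusted p = 0.0848). The MT1H gap did pass in the authors' deposited log2 table (-0.67, adjusted p = 0.0436), with detection required on all 12 arrays (-1.12, adjusted p = 0.0228) and with a trended, robust variance (-1.12, adjusted p = 0.00696).

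The other 3 metallothioneins measured did not pass. They were MT2A (-1.12 ± 0.24, adjusted p = 0.0729), MT1E (-0.74 ± 0.20, adjusted p = 0.163) and MT1X (-0.64 ± 0.22, adjusted p = 0.259), the last 2 named to complete the family. All 6 were below 0. Of the 18 members of the metallothionein and zinc transport list 3 fell and 15 did not pass (median -0.28), and MTF1, the zinc sensor that drives metallothionein genes, had a difference of -0.62 ± 0.24, adjusted p = 0.310. The MTF1 value holds a scrambled change of 0.53 beside hairpin changes of -0.09 and -0.08. MT1F lost its call without the uninduced scrambled replicate 2 (adjusted p = 0.0556) or the induced scrambled replicate 1 (0.0569). MT1G lost it without any of the 4 scrambled arrays or the induced hairpin 2 replicate 2 (0.0539 to 0.0949). With equal medians MT1H (-1.10, adjusted p = 0.0664) and MT1G (-0.96, adjusted p = 0.123) did not pass. The coding sequences of the family are near-identical, so the gene behind each probe's signal is uncertain.

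Metallothionein promoters are known for metal response elements, and they are printed to show these runs of letters. TGCACNC and TGCGCNC, on both strands, are in capitals (on the opposite strand they read GNGTGCA and GNGCGCA, and neighbouring matches may overlap). Each sequence ends at or near the start of transcription.
MT1H, GRCh38.p14, chr16:56669591-56669812, plus strand: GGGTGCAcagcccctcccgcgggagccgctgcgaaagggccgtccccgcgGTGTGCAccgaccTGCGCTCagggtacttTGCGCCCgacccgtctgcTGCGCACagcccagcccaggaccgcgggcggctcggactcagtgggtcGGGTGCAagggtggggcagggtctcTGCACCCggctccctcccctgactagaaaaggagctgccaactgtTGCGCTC
MT2A, GRCh38.p14, chr16:56608338-56608582, plus strand: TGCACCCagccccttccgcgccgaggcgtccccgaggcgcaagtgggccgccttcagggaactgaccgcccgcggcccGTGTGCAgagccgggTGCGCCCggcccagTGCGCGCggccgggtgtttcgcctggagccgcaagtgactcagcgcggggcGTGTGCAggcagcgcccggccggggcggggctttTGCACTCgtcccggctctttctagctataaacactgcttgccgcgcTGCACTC
MT1X, GRCh38.p14, chr16:56682312-56682431, plus strand: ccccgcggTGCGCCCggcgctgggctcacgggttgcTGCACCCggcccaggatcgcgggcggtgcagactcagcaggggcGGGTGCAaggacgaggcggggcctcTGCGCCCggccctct
The windows held 8 matches in MT1H, 7 in MT2A and 4 in MT1X. At least 4 matches lay in 68 of the 9046 tested genes (0.752%), and MT1H was the 1 of the 18 falls among them. A single match is common: 39.8% of the tested genes and 7 of the 18 falls (38.9%) had at least 1.

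NFASC was the 1 fall on the list of tight and adherens junctions, and CLDN11, PCDH10 and LGALSL fell without belonging to a list. NFASC (neurofascin) is an adhesion protein of the immunoglobulin family. Its levels were 4.86 and 5.19 induced and 6.35 and 6.24 uninduced with hairpin 1, 4.65 and 4.58 induced and 6.35 and 6.43 uninduced with hairpin 2, and 6.03 and 6.27 induced and 6.13 and 5.64 uninduced with the scrambled hairpin. The induced hairpin arrays were the lowest 4, with the hairpin 2 pair at background and 1 of the hairpin 1 pair above it. The difference was -1.79 ± 0.23, adjusted p = 0.00430, and a second, dimmer NFASC probe gave 0.40 (adjusted p = 0.727 over 19172 probes), so the probes disagree. NFASC was at least 2.39-fold lower in induced than in uninduced hairpin 2 cells, and with the mean of its probes it did not pass (-0.70, adjusted p = 0.248). CLDN11, a claudin of tight junctions, had 6.83 and 6.92 induced and 8.19 and 8.19 uninduced with hairpin 1, 7.42 and 7.49 induced and 8.31 and 8.04 uninduced with hairpin 2, and 8.90 and 8.99 induced and 9.03 and 8.87 uninduced with the scrambled hairpin. Its 4 induced hairpin arrays were lowest and its uninduced hairpin arrays lay -0.77 from the uninduced scrambled ones (adjusted p = 0.0111). CLDN11 differed by -1.01 ± 0.19, adjusted p = 0.0352, a call kept only without the uninduced hairpin 2 replicate 2 (adjusted p of 0.0654 to 0.171 without any other array). With equal medians it had -0.70 (adjusted p = 0.300), and with array weights an adjusted p of 0.0503.

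PCDH10, a protocadherin, and LGALSL, a galectin-related protein, had smaller hairpin changes that the opposite scrambled change widened. LGALSL levels were 6.97 and 7.16 induced and 7.59 and 7.72 uninduced with hairpin 1, 7.04 and 7.05 induced and 7.66 and 7.54 uninduced with hairpin 2, and 8.10 and 8.18 induced and 7.60 and 7.82 uninduced with the scrambled hairpin. Its changes were -0.59 with hairpin 1, -0.56 with hairpin 2 and 0.43 with the scrambled hairpin, and it differed by -1.01 ± 0.19, adjusted p = 0.0352. PCDH10 levels were 5.10 and 5.09 induced and 5.40 and 5.36 uninduced with hairpin 1, 5.04 and 5.18 induced and 5.61 and 5.51 uninduced with hairpin 2, and 5.53 and 5.54 induced and 4.98 and 4.92 uninduced with the scrambled hairpin, all within about 1 log2 unit, with the induced hairpin 1 and the uninduced scrambled groups below background on both arrays. PCDH10 differed by -0.95 ± 0.17, adjusted p = 0.0331. Both calls were lost whichever array was left out (adjusted p of 0.0574 to 0.133 for LGALSL and 0.0605 to 0.136 for PCDH10). With equal medians neither passed (-0.72, adjusted p = 0.287 for LGALSL and -0.82, adjusted p = 0.210 for PCDH10). LGALSL also missed with array weights (adjusted p = 0.0501). PCDH10 had -0.28 (adjusted p = 0.259) without background correction, -0.32 (adjusted p = 0.247) in the authors' deposited log2 table and an adjusted p of 0.126 with a trended, robust variance.

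On the list of tight and adherens junctions 1 of 18 measured genes fell (NFASC) and 17 did not pass, with a median of -0.09. CLDN11, a claudin that fell, is not on the list, so the count depends on how the list was drawn up. CLDN4, a claudin of epithelial junctions, had the highest value of the list at 1.28 ± 0.29, adjusted p = 0.0962 and did not pass. Its levels were 5.87 and 6.64 induced and 5.37 and 5.15 uninduced with hairpin 1, 6.08 and 6.26 induced and 5.10 and 5.43 uninduced with hairpin 2, and 5.22 and 5.74 induced and 5.91 and 5.71 uninduced with the scrambled hairpin. All 4 induced hairpin arrays lay above the 4 uninduced hairpin arrays, while the scrambled arrays overlapped, 1 of the induced pair being below background. TJP1, the scaffold of the tight junction, had -0.45 ± 0.19, adjusted p = 0.345.

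ASB9, TMT1B, RPRML and PNMA2 also fell, in each hairpin subline and against the scrambled response. ASB9 is a substrate adaptor of a ubiquitin ligase. Its levels were 6.22 and 6.22 induced and 8.32 and 7.51 uninduced with hairpin 1, 5.71 and 5.39 induced and 8.01 and 7.77 uninduced with hairpin 2, and 8.37 and 8.70 induced and 8.50 and 8.56 uninduced with the scrambled hairpin. The 4 induced hairpin arrays lay below all 8 others, and the difference was -2.03 ± 0.28, adjusted p = 0.00663, a 4.08-fold lower response (second probe -1.18, adjusted p = 0.0802 over 19172 probes). TMT1B, a methyltransferase of the endoplasmic reticulum and lipid droplets, had 6.18 and 5.98 induced and 7.43 and 7.28 uninduced with hairpin 1, 6.73 and 6.44 induced and 7.52 and 7.39 uninduced with hairpin 2, and 7.84 and 8.06 induced and 7.73 and 7.92 uninduced with the scrambled hairpin. It was lowest in the induced hairpin 1 arrays, then in the induced hairpin 2 arrays, and differed by -1.20 ± 0.20, adjusted p = 0.0212. RPRML, a relative of the cell cycle inhibitor reprimo, had 7.50 and 7.76 induced and 8.78 and 8.75 uninduced with hairpin 1, 7.47 and 7.25 induced and 8.99 and 8.75 uninduced with hairpin 2, and 8.51 and 8.39 induced and 8.79 and 8.43 uninduced with the scrambled hairpin. Its 4 induced hairpin arrays lay below the other 8 (-1.16 ± 0.21, adjusted p = 0.0352). PNMA2, known as a target of antibodies in paraneoplastic disease, had 4.52 and 4.61 induced and 5.87 and 6.05 uninduced with hairpin 1, 4.93 and 5.23 induced and 6.03 and 6.07 uninduced with hairpin 2, and 5.49 and 5.92 induced and 5.44 and 5.77 uninduced with the scrambled hairpin. It was near background in the induced hairpin arrays (none of the hairpin 1 pair and 1 of the hairpin 2 pair above it, and at least 1.71-fold lower in induced than in uninduced hairpin 1 cells) and differed by -1.28 ± 0.23, adjusted p = 0.0276.

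ASB9 kept its call in all 12 fits without 1 array. TMT1B lost it without any of the 4 scrambled arrays, the induced hairpin 1 replicate 2, the uninduced hairpin 2 replicate 1 or the induced hairpin 2 replicate 2 (adjusted p of 0.0569 to 0.0880). PNMA2 kept it only without the induced scrambled replicate 1, the uninduced hairpin 1 replicate 1 or the induced hairpin 2 replicate 2 (0.0521 to 0.119 without any other). RPRML kept it only without the uninduced scrambled replicate 1, the induced hairpin 1 replicate 2 or the uninduced hairpin 2 replicate 2 (0.0620 to 0.179 without any other). With equal medians TMT1B (-0.93, adjusted p = 0.149) and RPRML (-0.86, adjusted p = 0.191) did not pass. With no filter on dim probes PNMA2 and RPRML did not (adjusted p = 0.0621 for each). PNMA2 also missed without background correction (-0.42, adjusted p = 0.107) and in the authors' deposited log2 table (-0.47, adjusted p = 0.0850).

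**Figure D3:**
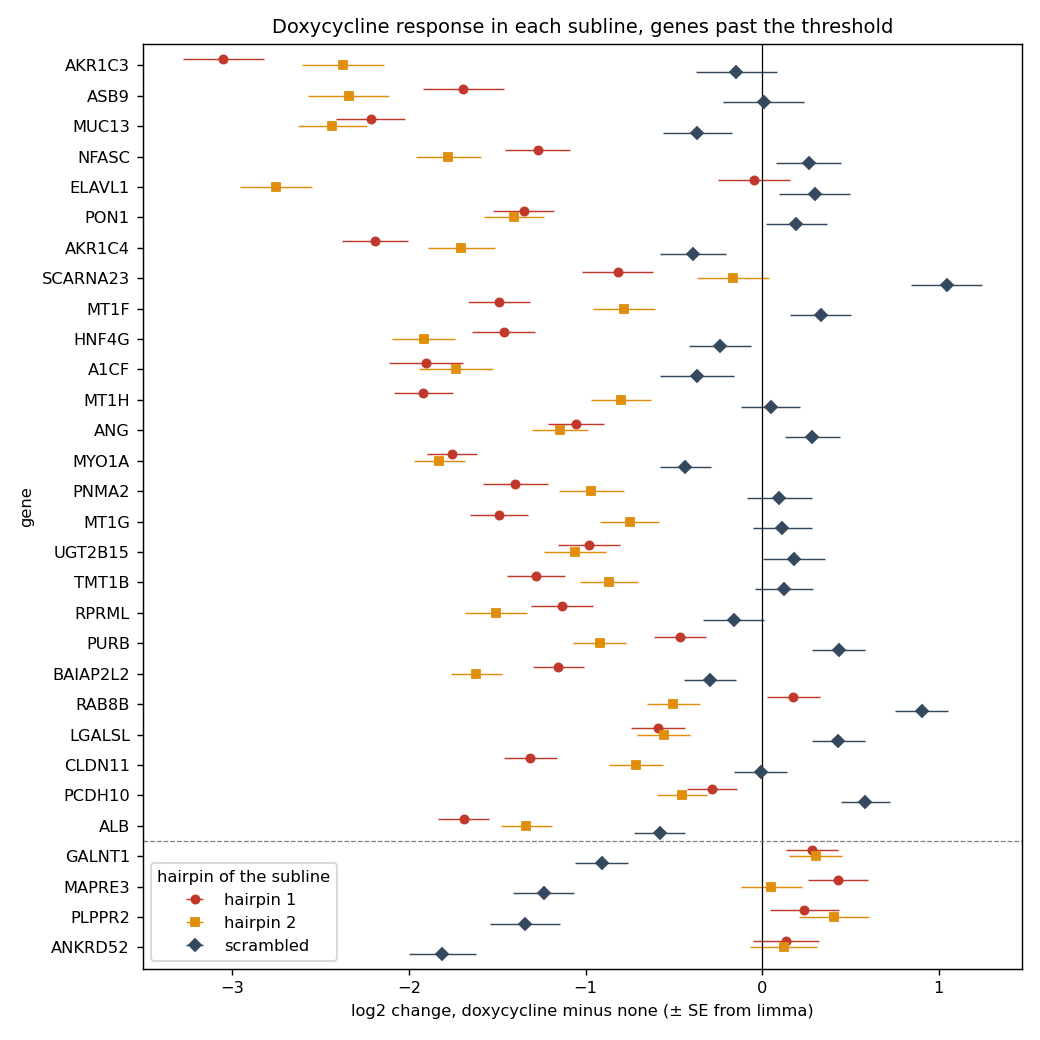
Change with doxycycline (log2, ± SE from limma) in the hairpin 1, hairpin 2 and scrambled sublines for the 30 genes past the threshold, in order of their difference, with the 26 falls above the dashed line. The gap between the hairpins varies among the falls. It is narrowest for LGALSL (hairpin 1 at -0.59, hairpin 2 at -0.56) and widest for ELAVL1 (-0.05 and -2.75), with MT1H at -1.92 and -0.80. For the 4 rises the scrambled subline stands apart.

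PURB, RAB8B and SCARNA23 passed with a scrambled change above 0. That is not particular to them, since the scrambled change was below 0 in only 10 of the 26 falls. PURB binds purine-rich single-stranded DNA and RNA, and its levels were 10.11 and 10.18 induced and 10.52 and 10.70 uninduced with hairpin 1, 9.67 and 9.55 induced and 10.59 and 10.48 uninduced with hairpin 2, and 10.64 and 10.58 induced and 10.09 and 10.27 uninduced with the scrambled hairpin. Its changes were -0.47 with hairpin 1, -0.92 with hairpin 2 and 0.43 with the scrambled hairpin, and the difference was -1.13 ± 0.18, adjusted p = 0.0153, lost without the uninduced scrambled replicate 1 (adjusted p = 0.0658) or the induced scrambled replicate 1 (0.0862). RAB8B is a small GTPase of vesicle traffic, with levels of 7.39 and 7.36 induced and 7.10 and 7.30 uninduced with hairpin 1, 6.54 and 6.56 induced and 6.93 and 7.17 uninduced with hairpin 2, and 7.63 and 7.60 induced and 6.78 and 6.65 uninduced with the scrambled hairpin. The scrambled change was the largest of the 3 (0.18 with hairpin 1, -0.50 with hairpin 2 and 0.90 with the scrambled hairpin), and hairpin 1 pointed upward. The RAB8B difference of -1.07 ± 0.18, adjusted p = 0.0243 was kept only without replicate 1 of either uninduced hairpin group (adjusted p of 0.0518 to 0.128 without any other array). SCARNA23, a small Cajal body RNA, had 4.56 and 4.73 induced and 5.66 and 5.27 uninduced with hairpin 1, 5.10 and 5.05 induced and 5.37 and 5.10 uninduced with hairpin 2, and 6.05 and 5.53 induced and 4.90 and 4.58 uninduced with the scrambled hairpin, with 3 of the 6 groups below background, so its difference (-1.54 ± 0.25, adjusted p = 0.0153) rests on dim signals. It was lost without the uninduced scrambled replicate 2 (0.108) or the induced scrambled replicate 1 (0.104), without background correction (-0.47, adjusted p = 0.0745), in the authors' deposited log2 table (-0.53, adjusted p = 0.0531) and with no filter on dim probes (adjusted p = 0.0507). With equal medians PURB (-0.85, adjusted p = 0.186) and RAB8B (-0.77, adjusted p = 0.246) did not pass.

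ELAVL1 encodes HuR, which binds and stabilises messenger RNAs rich in AU sequence. Its levels were 7.64 and 7.57 induced and 7.57 and 7.73 uninduced with hairpin 1, 4.32 and 4.83 induced and 7.18 and 7.48 uninduced with hairpin 2, and 6.99 and 7.39 induced and 6.74 and 7.04 uninduced with the scrambled hairpin. The induced hairpin 2 pair was at background, at least 4.59-fold below the uninduced hairpin 2 pair, while the hairpin 1 arrays overlapped. The mean difference was -1.70 ± 0.25, adjusted p = 0.00749. ELAVL1 was the 1 gene of the 30 whose hairpin responses differed past the threshold (hairpin 1 minus hairpin 2 of 2.71 ± 0.29, adjusted p = 0.00234), against 23 of all 11164 genes (0.206%). Of the 26 falls the hairpin 1 change was the larger against the scrambled response in 12 and the hairpin 2 change in 14. For both hairpins the difference from the scrambled response was below 0 in 26 of 26, a direction partly set by their use of the same scrambled arrays. The falls were also chosen by the mean of these 2 differences, so the count does not show that the hairpins agree. For ELAVL1 the hairpin 1 difference was -0.34, with a scrambled change of 0.30.

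Higher against the scrambled response were ANKRD52, which helps protein phosphatase 6 choose its substrates, PLPPR2, a relative of lipid phosphatases, MAPRE3, which binds growing microtubule ends, and GALNT1, which starts mucin-type glycosylation. ANKRD52 levels were 6.76 and 6.65 induced and 6.56 and 6.58 uninduced with hairpin 1, 6.68 and 6.70 induced and 6.74 and 6.40 uninduced with hairpin 2, and 4.93 and 5.52 induced and 7.02 and 7.05 uninduced with the scrambled hairpin. Its 8 hairpin arrays spanned 6.40 to 6.76 whether induced or not, and the induced scrambled pair stood apart below, with 1 array of it above background. PLPPR2 levels were 6.64 and 6.87 induced and 6.79 and 6.24 uninduced with hairpin 1, 7.18 and 7.06 induced and 6.87 and 6.57 uninduced with hairpin 2, and 5.47 and 5.78 induced and 6.98 and 6.96 uninduced with the scrambled hairpin, and the induced scrambled pair was again lowest, with 1 array above background. MAPRE3 levels were 6.89 and 6.74 induced and 6.57 and 6.20 uninduced with hairpin 1, 6.65 and 6.73 induced and 6.63 and 6.65 uninduced with hairpin 2, and 5.44 and 5.11 induced and 6.44 and 6.59 uninduced with the scrambled hairpin, with the induced scrambled pair below background and at least 2.28-fold under the uninduced one. GALNT1 levels were 7.68 and 7.63 induced and 7.40 and 7.35 uninduced with hairpin 1, 8.02 and 8.07 induced and 7.70 and 7.79 uninduced with hairpin 2, and 6.75 and 6.61 induced and 7.72 and 7.46 uninduced with the scrambled hairpin, and its induced scrambled pair was likewise the lowest. The differences were 1.94 ± 0.23, adjusted p = 0.00430 for ANKRD52, 1.67 ± 0.24, adjusted p = 0.00749 for PLPPR2, 1.48 ± 0.21, adjusted p = 0.00745 for MAPRE3 and 1.20 ± 0.18, adjusted p = 0.00869 for GALNT1. PLPPR2 lost its call without the induced scrambled replicate 1 (adjusted p = 0.0604), MAPRE3 without the uninduced scrambled replicate 2 (0.0521) and GALNT1 without the uninduced scrambled replicate 1 (0.0515).

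The sublines differed before induction in some of the same genes. Of the 26 falls 9 were lower by over 0.5 in the uninduced hairpin sublines than in the uninduced scrambled subline, 3 were higher by over 0.5 and 14 lay within 0.5. AKR1C4, UGT2B15, BAIAP2L2 (-1.27, adjusted p = 0.000147), CLDN11 and MYO1A (-0.68, adjusted p = 0.0171) passed the test in that comparison, all lower. AKR1C3 had -0.89 (adjusted p = 0.0588) and ASB9 -0.62 (adjusted p = 0.195), which did not pass, and HNF4G differed by 0.11. Whether a hairpin acts without doxycycline or the sublines differ otherwise was not tested. The uninduced arrays of this comparison also enter the difference of differences. The share of all genes that differed before induction is not given here, so these counts do not set the falls apart from other genes.

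Genes just outside the threshold extended both sides. The 5 falls nearest to it were RND3 (-1.09 ± 0.21, adjusted p = 0.0517), RBBP4, a histone-binding subunit of chromatin complexes (-0.99 ± 0.19, adjusted p = 0.0517), RAMP1, a receptor partner for calcitonin gene-related peptide (-1.06 ± 0.21, adjusted p = 0.0561), the spliceosomal RNA gene RNU4-2 (-1.12 ± 0.22, adjusted p = 0.0561) and YRDC, an enzyme of transfer RNA modification (-0.98 ± 0.20, adjusted p = 0.0624). YRDC changed by -0.10 with hairpin 1, -1.72 with hairpin 2 and 0.08 with the scrambled hairpin, so its mean rests on hairpin 2. The 5 rises nearest to it were SLC27A1, a fatty acid transporter (1.06 ± 0.21, adjusted p = 0.0517), LINC00623 (1.01 ± 0.20, adjusted p = 0.0517), EVI5L (1.13 ± 0.22, adjusted p = 0.0517), TMEM234 (1.17 ± 0.23, adjusted p = 0.0517; above background on 3 of 12 arrays) and CHFR, a mitotic checkpoint ligase (1.03 ± 0.21, adjusted p = 0.0561). LINC00623 was the 1 of these 5 whose hairpin changes were both much larger than the scrambled one (0.83 with hairpin 1, 0.97 with hairpin 2 and -0.11 with the scrambled hairpin), while EVI5L and CHFR had the scrambled subline at -0.86 and -0.81.

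**Figure D4:**
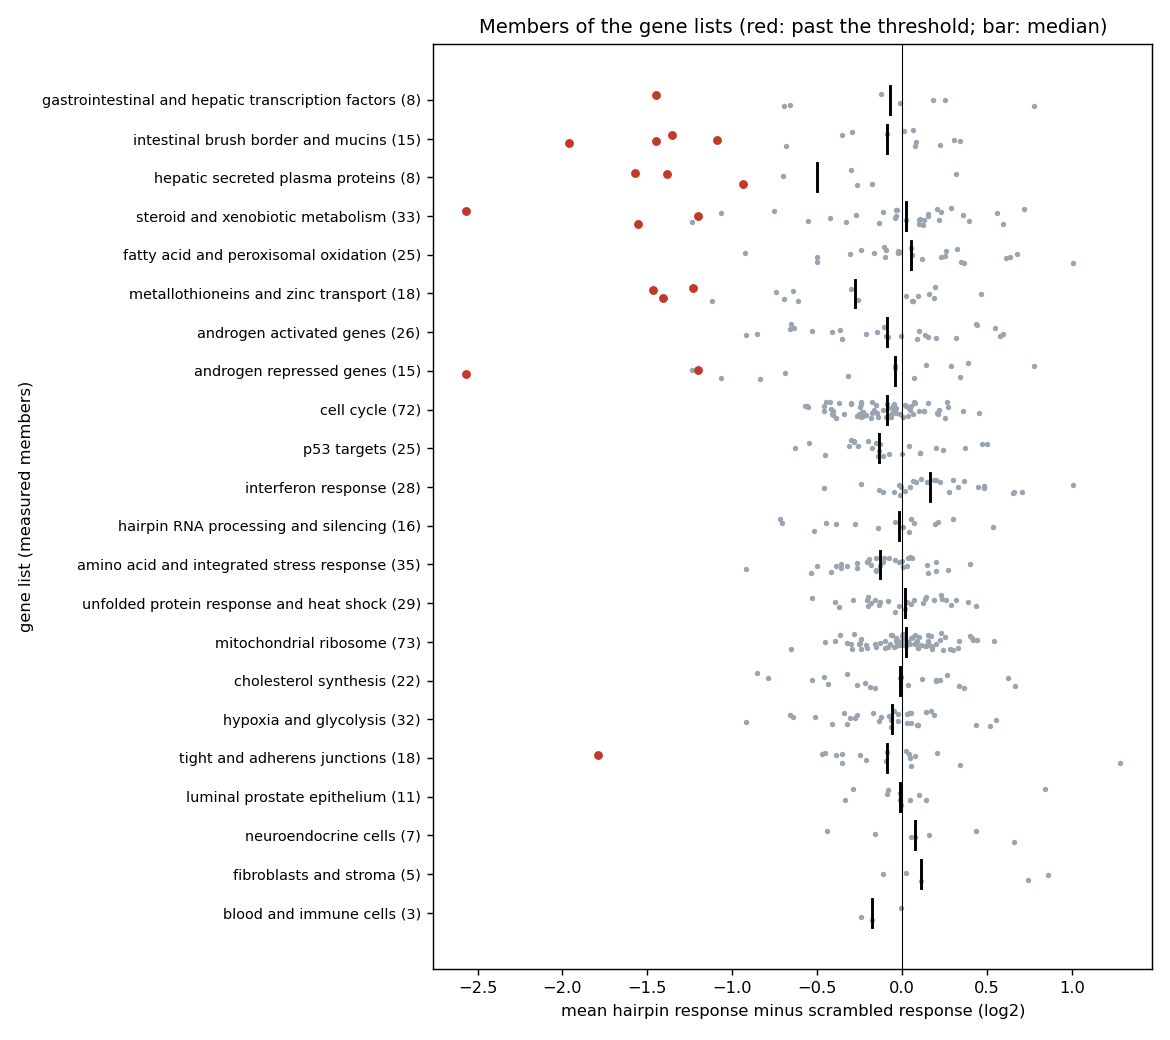
Mean hairpin response minus scrambled response (horizontal axis, log2) of the measured members of 22 gene lists, with each list's number of members in brackets, red points for genes past the threshold and a bar at the median. The red points all lie at or below -0.93, and the medians run from -0.50 to 0.17.

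Of 8 measured transcription factors of gut and liver, HNF4G fell and 7 did not pass. SOX9, a factor of intestinal crypts (-0.66 ± 0.21, adjusted p = 0.221), ONECUT2 (-0.70 ± 0.23, adjusted p = 0.243) and KLF5 (0.78 ± 0.40, adjusted p = 0.448) were nearest, KLF5 being above background on both arrays in 1 of the 6 groups. HNF4A was not analysed here. Among 25 genes of fatty acid and peroxisomal oxidation, to which HNF4 factors are often tied, 0 passed (median 0.05). Of these 25 genes 7 had an unadjusted p under 0.05 (limma), against 12.2% of all genes. TMLHE, of carnitine synthesis, had 1.00 ± 0.20, adjusted p = 0.0568 and ACSM3, a medium-chain acyl-CoA ligase, -0.93 ± 0.26, adjusted p = 0.176.

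Androgen receptor output had no gene of its activated list past the threshold. Of 26 activated genes 0 passed (median -0.09), the nearest being INSIG1, a brake on sterol synthesis (-0.85 ± 0.18, adjusted p = 0.0671), and ELL2, an elongation factor (-0.63 ± 0.19, adjusted p = 0.205). Of 15 androgen repressed genes AKR1C3 and UGT2B15, which also stand on the steroid list, fell and 13 did not pass (median -0.04). At an unadjusted p under 0.05 (limma) there were 7 of the 26 activated and 7 of the 15 repressed genes. The share of all genes was 12.2% there, and 0.269% of all genes passed the threshold. DDC, which makes dopamine, did not pass (-0.84 ± 0.25, adjusted p = 0.203) and was below background on all 4 induced hairpin arrays. No change under 0.93 in size passed for any gene, so smaller changes in these lists could go undetected with 2 arrays a group.

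In the lists for growth, stress and housekeeping 0 genes passed. These were 72 cell cycle genes (median -0.09, lowest CDC25A at -0.57), 25 p53 targets (-0.14, lowest GDF15 at -0.63), 35 genes of the amino acid and integrated stress response (-0.13, lowest VEGFA at -0.92) and 29 of the unfolded protein response and heat shock (0.02). The same held for 73 mitochondrial ribosome genes (0.02), 22 of cholesterol synthesis (-0.01) and 32 of hypoxia and glycolysis (-0.06). The interferon list had the highest median at 0.17 over 28 genes, with TAP1, the antigen peptide transporter, at 0.70 ± 0.19, adjusted p = 0.163 and PSMB9, a subunit of the immunoproteasome, at 1.00 ± 0.29, adjusted p = 0.195. Neither passed, and PSMB9 was below background on both arrays of 3 groups. Of 16 genes that process hairpin RNA 0 passed (median -0.02). AGO2, the slicer of RNA interference, had -0.72 ± 0.18, adjusted p = 0.133, made of 0.31 with hairpin 1, -0.58 with hairpin 2 and 0.59 with the scrambled hairpin. At an unadjusted p under 0.05, where 12.2% of all genes stood, there were 5 of the 72 cell cycle genes, 2 of the 25 p53 targets, 3 of the 35 stress response genes, 2 of the 29 unfolded protein genes and 2 of the 73 mitochondrial ribosome genes. The counts were 6 of 22 for cholesterol synthesis, 6 of 32 for hypoxia and glycolysis, 5 of 28 for interferon and 6 of 16 for the processing of hairpin RNA.

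Markers of luminal prostate epithelium, the cell type that most prostate carcinomas resemble, were present in every group. Of 14 such markers 11 were among the genes tested, each detected on at least 1 array of all 6 groups, and 0 passed (median -0.01). Their summed normalized intensity was 14280 to 15269 in induced and 14003 to 14728 in uninduced hairpin 1 cells, 15464 to 15938 in induced and 14626 to 16438 in uninduced hairpin 2 cells, and 13993 to 15547 in induced and 13954 to 14149 in uninduced scrambled cells. None of 8 basal markers was among the genes tested. Of 10 stromal markers 5 were tested and 0 passed, although their sum was 1025 to 1112 in induced and 968 to 1014 in uninduced hairpin 1 cells, 1358 to 1404 in induced and 982 to 1022 in uninduced hairpin 2 cells, and 585 to 658 in induced and 727 to 784 in uninduced scrambled cells. VIM (vimentin) had the smallest p of these (0.74 ± 0.18, adjusted p = 0.124), and the collagen genes of the list were not among those tested. Of 10 blood and immune markers 3 were tested (CD14, CD68 and HBA1) and 0 passed, as with 7 of 10 neuroendocrine markers. The part that such cells may have in the results was not tested.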

How the data were processed

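RNA of 12 samples was hybridised to bead arrays, with groups taken from the sample titles. The deposited intensity of each probe, and the detection p-value beside it, came from BeadStudio, and the deposited log2 table from Partek, per the submitters' processing notes (versions not given in the sources used here); the authors' log2 medians were 6.67 on every array. Analysis began from the intensities with limma 3.58.1, statmod 1.5.0 and R 4.3.3. After 1479 blank rows were left out, neqc corrected the background, added an offset of 16, normalized by quantiles and took log2. Probes detected (p under 0.01) on 2 or more arrays were kept (19172), of which 14767 had a gene name, and the brightest on average stood for a gene. GEO's platform annotation gave 30113 probes 1 symbol, 8 several and 17202 none; 30074 matched RefSeq by gene ID. A model of 6 group means with empirical Bayes (6 residual and 7.91 prior degrees of freedom) was two-sided, with Benjamini-Hochberg adjustment over 11164 genes and a threshold of 0.05. It was tested on simulated data.

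A group below background on both arrays gives a bound: the brighter mean against, per array, the higher of the dimmest detected signal and the probe's own. Named genes are HNF4G, those past the threshold, up to 4 of each list with the smallest p, list members that passed, and 5 each way that just missed. Members and lists were chosen with earlier results of these data known. Replicate numbers did not pair samples (15 correlations of deviations, -0.03 to 0.07), so no block was used. Alternatives changed the background correction, scaling, filter, probe rule and variance model, or left out 1 array. With 2 arrays a group, the number of arrays limits precision.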

Additional observations from a re-analysis of the deposited data

Results flagged for a closer look

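ELAVL1 was flagged because the hairpins gave different responses. Hairpin 1 minus hairpin 2 was 2.71 (± 0.29, limma, adjusted p = 0.00234), with the induced hairpin 2 pair at background and the induced hairpin 1 pair at 7.64 and 7.57.

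Probes without a gene name stood outside the tests of genes, and 6 of the 4405 kept ones passed at the probe level (limma, adjusted over 19172 probes). The lower ones were ILMN_2294978 (-1.78, adjusted p = 0.00729), ILMN_2408572 (-1.68, adjusted p = 0.0101) and ILMN_2294976 (-1.44, adjusted p = 0.0119). All 3 had negative changes with both hairpins and positive ones with the scrambled hairpin, and were above background on all 12 arrays. The higher ones were ILMN_1741214 (1.17, adjusted p = 0.0166), whose scrambled change was -1.29, ILMN_1888615 (1.35, adjusted p = 0.0362) and ILMN_1800488 (1.46, adjusted p = 0.0244), the last 2 above background on 4 and 3 arrays.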

How the results depend on the processing

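The 30 differences past the threshold kept their sign under all 22 alternatives wherever a gene was tested, 12 of which left out 1 array. The count of 30 (26 lower, 4 higher) was 118 without background correction (70 and 48), 56 with equal medians (13 and 43), 125 in the authors' deposited log2 table (73 and 52), 57 with detection on all 12 arrays (37 and 20) and 131 with a trended, robust variance (78 and 53). These shared 22, 17, 24, 17 and 29 genes with the 30. Leaving out 1 array gave 14 to 37. Genes past the threshold whose hairpin responses also differed numbered 16, 17, 3 and 14 without background correction, in the authors' table, with detection on all 12 arrays and with the trended variance, against 1 of the 30, and 1 to 2 without 1 array (2 without the induced scrambled replicate 2). HNF4G was -0.49 without background correction (adjusted p = 0.0596) and ran from -1.64 to -1.26 without 1 array; it was not tested with detection on all 12. With the replicate number as a block the count was 36 (28 and 8) and HNF4G kept its value of -1.45 (adjusted p = 0.0132); the numbers pair no samples in the labels or the correlations.

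Calls of AKR1C3, ASB9, MUC13, ELAVL1, PON1 and ANKRD52 held in every alternative that tested them, and 10 of the 30 held without any 1 array. Of 2326 values of named genes over the alternatives, 2054 kept their direction and side of the threshold. Equal medians moved 20 of 22 list medians by over 0.18, while the median over all genes itself went from 0.01 to 0.26. With 2 arrays a group, no change under 0.93 passed, and genes at background on both arrays of a group have bounds only. The causes of these shifts were not tested.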
